A study of Homo sapiens with 6 samples.

Results

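The subunits of mitochondrial complex I were followed in human samples labelled as breast cancer cells with and without a transfected rat Fry cDNA. The members were chosen by name. They are the genes read by at least 1 probe set that names a single gene, whose symbol is NDUFA, NDUFB, NDUFC, NDUFS or NDUFV followed by a number, or NDUFAB1. Assembly factors, whose symbols start with NDUFAF, were left out. This gave 33 genes on 62 probe sets, of 19775 genes on 41091 probe sets in all. A probe set is the group of short oligonucleotides on the array that together read 1 transcript region.

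The 6 samples were total RNA of 2 groups, each read on a 1-colour Affymetrix array. Per the labels, the 3 samples named wtCopFry were of 231wCFry, a single stable clone of MDA-MB-231 that carries a 10791 base pair cDNA of the wild-type Copenhagen rat Fry allele and was selected with puromycin. The 3 samples labelled not_transfected were the untreated parental line. MDA-MB-231 is an established human breast cancer cell line, and Fry is a very large protein known as a scaffold of NDR kinases. The labels place the clone's Fry level near that of MCF10A, a non-tumour mammary epithelial line, and describe no clone with an empty vector. As labelled, all differences are between 1 selected, transfected clone and its untransfected parent. The marker genes described further on differed so widely between the groups that whether the wtCopFry samples derive from MDA-MB-231 cannot be told from these arrays. The labels name no separate cultures within a group, so p-values measure the spread between these samples, which may be technical.

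Complex I (NADH:ubiquinone oxidoreductase) is the entry point of the respiratory chain. It takes electrons from NADH, passes them along a flavin and a chain of iron-sulfur clusters in its matrix arm to ubiquinone, and pumps protons through its membrane arm. A small set of core subunits carries out the catalysis, and many accessory subunits stabilise the complex. Mitochondrial DNA encodes the hydrophobic core of the membrane arm, while nuclear genes, including all the members here, encode the remaining subunits.

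The nuclear genes of the respiratory chain are known for short promoter motifs shared by many of them, so the promoter windows were read first. RefSeq windows of GRCh38.p14, from 250 bases before to 50 bases after each annotated start, were found for 31 of the 33 genes. NDUFB5 and NDUFB9 had no window. The motif of YY1, a zinc finger factor, was searched on both strands as AANATGGCG. It was present in 10 of the 31 genes (32.3%), against 3.85% of 27305 genes with windows. The windows of 30 bases below show every such site, written 5′ to 3′ on the gene's strand with the motif in capitals, and each gene's call in wtCopFry samples against parental samples stands beside it. In NDUFS1 and NDUFV2 the motif lies on the opposite strand, so the capitals read as its reverse complement.
NDUFS1, which rose: tagccgaggcCGCCATATTgaataagcgac
NDUFA6, which rose: atgctttggcAAGATGGCGgggagcggcgt
NDUFA7, which rose: tcgcggacggAAGATGGCGtccgccacccg
NDUFA9, which rose: attgtgggaaAAGATGGCGgctgccgcaca
NDUFS7, which rose: ggccgaggccAAGATGGCGgtgctgtcagg
NDUFS4, which fell: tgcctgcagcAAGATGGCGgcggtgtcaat
NDUFV2, which fell: gggaaggtgaacagtgtggccCGCCATGTT
NDUFB8, which did not pass: gaagaaggtgAAGATGGCGgtggccagggc
NDUFS3, which did not pass: gcatctgagtAACATGGCGgcggcggcggt
NDUFS6, which did not pass: ccagcggcgcAAAATGGCGgcggcgatgac

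Genes with near-identical sites thus stood on both sides of the comparison. NDUFA6 on chr22:42090728-42090757 (minus strand) rose, and NDUFS4 on chr5:53560650-53560679 (plus strand) fell, with the same letters AAGATGGCG. The site of NDUFS1 lies at chr2:206159410-206159439 (minus strand) and that of NDUFV2 at chr18:9102719-9102748 (plus strand). In 10 of 11 gene and window pairs the motif began after the annotated start, at most 42 bases into the transcript. The 11th pair is the same NDUFS1 site in a second, overlapping window, where it began 220 bases before that window's annotated transcript start. The YY1 motif contains the letters ATG, which also open coding sequences, and overlap of its sites with coding starts was not tested. The motif of NRF1, a regulator of respiratory chain genes, was searched as GCGCANGCG and was found in 10 genes (32.3%), against 9.02% of all genes. It lies in the windows of the lower NDUFA3 and NDUFA12 and of the higher NDUFAB1, shown here for their opposite directions. In NDUFAB1 it lies on the opposite strand, so the capitals read as the reverse complement.
NDUFA3, first site: ctgcgcgagtGCGCACGCGcaggctccgaa
NDUFA3, second site: gtgctccaggGCGCACGCGcagccctggga
NDUFA12, which fell: acctagctctGCGCACGCGcagagccacca
NDUFAB1, which rose: ccgtgtgcgtCGCCTGCGCgccgccggaaa

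The NDUFA3 sites lie at chr19:54102675-54102704 and chr19:54102772-54102801 (plus strand), the NDUFA12 site at chr12:95003794-95003823 and the NDUFAB1 site at chr16:23596342-23596371 (both minus strand). Of the 10 genes with the NRF1 motif, 3 rose, 2 fell and 5 did not pass, while 34.8% of all tested genes rose and 34% fell. The NRF1 motif can overlap itself on the opposite strand, and the base composition of the windows was not compared with that of all genes. The other 4 motifs were also searched on both strands. The oestrogen-related receptor motif AAGGTCA was in 4 genes (12.9% against 4.8%), and the ETS motif CCGGAAGT was in 2 genes (6.45% against 4.95%). The SP1 motif GGGGCGGGG was in 6 genes (19.4% against 18.5%), and the CCAAT motif, searched as ATTGGC, was in 4 genes (12.9% against 17.6%). These matches describe letters in the windows and do not show that a factor binds there.

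The arrays had been scaled by the MAS5 algorithm to the same trimmed mean of 150.0, and signals are in its arbitrary units. Correlations of log2 signals between arrays were 0.992 to 0.995 within a group and 0.869 to 0.874 between groups. The 3′-to-5′ ratio of the GAPDH control, a sign of RNA integrity, was 1.24 to 1.33 on the wtCopFry arrays and 1.36 to 1.39 on the parental arrays, without overlap. The 4 probe sets of human FRY read at most 9.8 on any array, and they were not designed to the rat cDNA, so they do not check the transgene. Markers of cell identity differed between the groups. Of 5 breast epithelial markers 4 fell, with summed signals of 1514 to 1626 in wtCopFry samples and 6172 to 6841 in parental samples. KRT19 and EPCAM were near background in the wtCopFry samples. KRT18 stayed bright there and made up most of the sum, at 1457.6 to 1568.5, against 2876.9 to 3212.6 in parental samples. CDH1 was near background in both groups. Of 6 melanocyte and neural crest markers 5 rose, with sums of 4227 to 4605 in wtCopFry samples and 369.5 to 442.1 in parental samples. SOX10 and S100B were at or near 0 in the parental samples, at 0.2 to 0.8 and 0.1 to 1.7, and PMEL was dim in both groups. MITF made up most of the parental sum, at 353.0 to 422.8, against 1083.4 to 1203.9 in wtCopFry samples. MLANA and TYR rose but stayed dim in wtCopFry samples, at 16.5 to 64.1 and 19.3 to 35.3. Of 3 mesenchymal markers 2 rose, with sums of 8261 to 9326 in wtCopFry samples and 5394 to 5756 in parental samples. Of 3 stroma and blood markers, PECAM1 fell, with list sums of 7.9 to 16 in wtCopFry samples and 154.8 to 270.7 in parental samples, while PTPRC and CD3E were too dim to test. These markers go against the label of the wtCopFry samples as a clone of the parental line, and the arrays do not settle their origin. The part of these identity and RNA quality differences in the results was not tested. In RNA from whole cultures, fewer cells of a type and less RNA per cell cannot be told apart.

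The complex I genes did not move as a block in the wtCopFry samples. Of the 33 genes, 12 rose, 7 fell and 14 did not pass the test, with a median log2 change of 0.02. NDUFB9 was the only subunit whose change exceeded 1 on the log2 scale, while NDUFS1, NDUFAB1, NDUFA6 and NDUFB7 rose by 0.51 to 0.73 and NDUFA3 and NDUFV3 fell by 0.69. Each gene was read by its brightest tested probe set. Changes are wtCopFry minus parental on log2(signal + 16), from limma fitted over all 13630 tested genes, with an adjusted p under 0.05 as the threshold. The background in this comparison was high: 34.8% of all tested genes rose, 34% fell and 68.8% passed in either direction. The share of complex I genes that passed was not above that background. Their groups did not overlap in 22 of 33 genes, against 73.1% of all genes. The 7 falls dropped to 4 when wtCopFry replicate 2 or parental replicate 2 was left out. They dropped to 2 of 27 tested genes without probe sets whose suffix marks possible cross-reading.

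The changes of the complex I genes were small beside those of all genes. The median size of the log2 change was 0.26 over the 33 genes and 0.48 over all tested genes, and the SDs of the changes were 0.41 and 1.21. A log2 change of at least 1 was found in 1 of 33 genes, against 23.2% of all tested genes. Complex I genes are bright, and none had a mean signal under 240.5. Among the 6598 genes at or above that signal, 16.8% changed by at least 1, 68.6% passed the test, the median size was 0.41 and the SD was 1.19. Median sizes were no larger in the other respiratory chain lists, at 0.15 in complex II, 0.22 in complex III, 0.18 in complex IV and 0.21 in ATP synthase. No test was made of these differences. The mean log2 signal over the 33 genes was 10.42 to 10.47 on the wtCopFry arrays and 10.29 to 10.37 on the parental arrays, so the arrays of the groups did not overlap in this mean. The same mean was not taken over other genes. Read singly, 73.1% of all tested genes had groups without overlap, and the median log2 change of the 33 genes was 0.02.

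**Figure D1:**
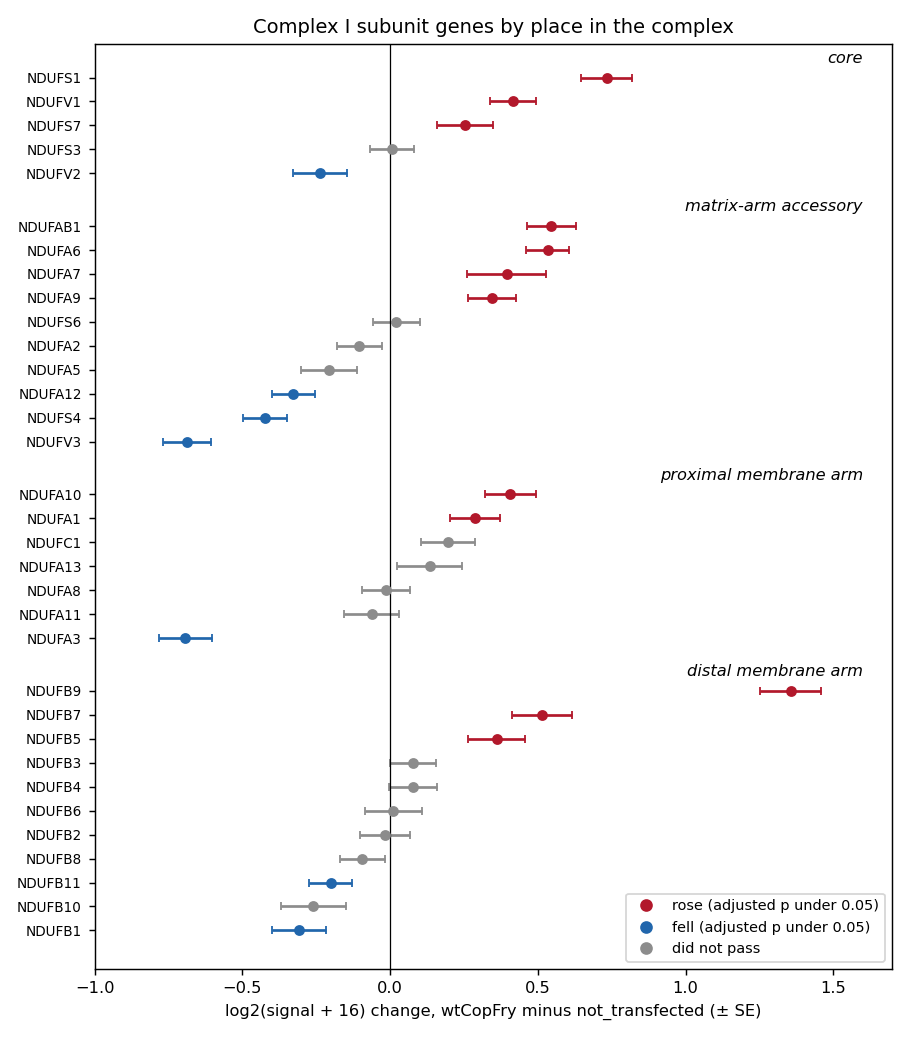
Change of each of the 33 complex I genes on log2(signal + 16), wtCopFry minus not_transfected (x axis, point with SE from limma, 3 arrays a group), ordered within the 4 places in the complex. Rises and falls stand in every place, and NDUFB9 at 1.36 is the single gene beyond 1.

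Core subunits, which carry the flavin and the iron-sulfur clusters, were read singly for 5 genes. Of these 3 rose, 1 fell and 1 did not pass, with a median log2 change of 0.25. Over all tested genes 34.8% rose and 34% fell, and these shares are the background for each place in the complex. NDUFS1, the largest subunit of the matrix arm and the carrier of several iron-sulfur clusters, had signals of 644.1, 659.1 and 733.9 in wtCopFry samples, against 388.3, 428.6 and 389.1 in parental samples. Every wtCopFry sample lay above every parental sample. The means were 679 ± 48.1 and 402 ± 23.0 (SD, n = 3 each), a log2 change of 0.73 (SE 0.09, limma adjusted p = 7.40e-05). A second bright NDUFS1 probe set read 660.4, 667.6 and 661.3 in wtCopFry samples, against 408.2, 373.1 and 426.8 in parental samples, and rose by 0.70. The 2 other tested NDUFS1 probe sets were dim, under 14, and did not pass.

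NDUFV1, which binds NADH and the flavin, read 1572.8, 1539.8 and 1591.6 in wtCopFry samples, against 1114.4, 1177.3 and 1222.6 in parental samples. The groups were well apart, with a log2 change of 0.42 (SE 0.08, limma adjusted p = 0.00115). NDUFV2, which holds an iron-sulfur cluster beside NDUFV1, went the other way. It read 1448.5, 1472.9 and 1494.1 in wtCopFry samples, against 1847.1, 1829.3 and 1548.6 in parental samples. The groups did not overlap, but the third parental sample lay close to the wtCopFry samples. The log2 change was -0.24 (SE 0.09, limma adjusted p = 0.0453), and the call was lost when any array except the third parental one was left out (adjusted p 0.0748 to 0.134). It was also lost with the replicate number as a block (adjusted p = 0.0567). In a fit over all 32771 tested probe sets the NDUFV2 probe set did not pass either (limma adjusted p = 0.0619).

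NDUFS7, which carries the last iron-sulfur cluster before ubiquinone, read 266.4, 259.0 and 262.2 in wtCopFry samples, against 201.8, 247.6 and 206.2 in parental samples. The second parental sample lay just under the wtCopFry samples. The log2 change was 0.25 (SE 0.09, limma adjusted p = 0.0379), and leaving out any array except the second parental one ended the call (adjusted p 0.0735 to 0.119). In the fit over probe sets it did not pass (limma adjusted p = 0.0514). NDUFS3, a core subunit without a cluster, had overlapping groups. It read 1627.3, 1709.4 and 1720.2 in wtCopFry samples, against 1675.7, 1723.3 and 1632.9 in parental samples, and its log2 change was 0.01 (SE 0.08, limma adjusted p = 0.94). NDUFS8 shares its 3 probe sets with 2 microRNA genes. None of those 3 probe sets passed.

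**Figure D2:**
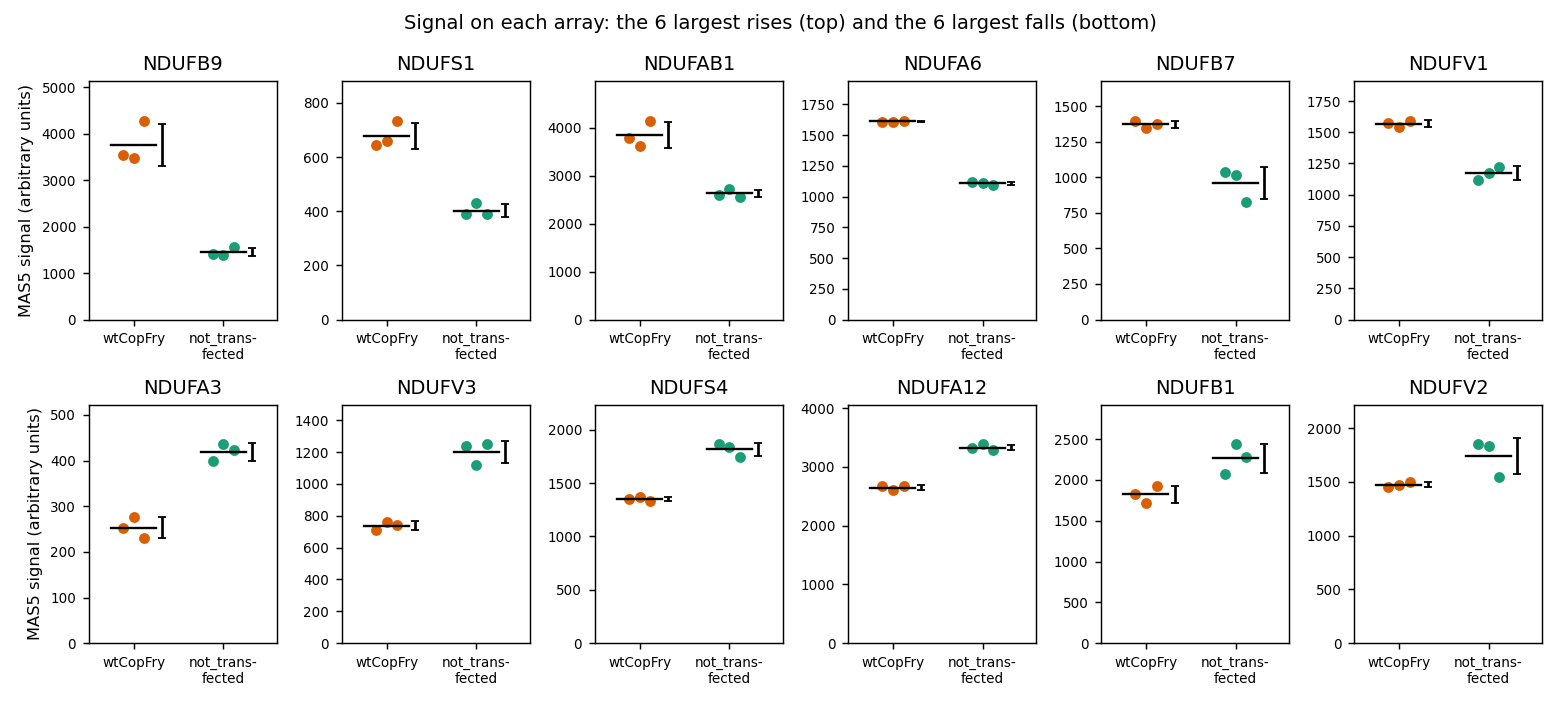
MAS5 signal (y axis, arbitrary units, from 0) on each of the 3 wtCopFry arrays (orange) and 3 not_transfected arrays (green), with the group mean as a line and the SD as a bar. The 6 largest rises and the 6 largest falls without overlap are shown, and the groups of NDUFV2 come nearest, at 1494.1 and 1548.6.

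Of the 10 accessory genes of the matrix arm 4 rose, 3 fell and 3 did not pass, with a median log2 change of -0.04. One of the falls, NDUFV3, depends on the probe set. NDUFAB1 is the mitochondrial acyl carrier protein, which also serves lipoic acid and iron-sulfur cluster synthesis. It read 3781.1, 3615.0 and 4140.5 in wtCopFry samples, against 2602.0, 2714.4 and 2561.7 in parental samples. The groups were clearly apart, and the log2 change was 0.55 (SE 0.08, limma adjusted p = 0.000365). NDUFA6, an LYR-motif protein that holds an acyl carrier protein on the matrix arm, rose by 0.53 (SE 0.07, limma adjusted p = 0.000167). Its signals were 1610, 1605 and 1616 in wtCopFry samples, against 1119.2, 1110.1 and 1092.7 in parental samples, among the tightest of all members. Its second probe set rose by 0.56. The remaining rises were NDUFA7 (0.39) and NDUFA9 (0.35), and NDUFA9 is a subunit near the ubiquinone site. The second, dimmer NDUFA7 probe set rose by 0.94. The NDUFA7 call in the gene fit was lost when any wtCopFry array was left out (adjusted p 0.0531 to 0.0667).

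The matrix-arm falls were NDUFV3, NDUFS4 and NDUFA12. NDUFS4, an accessory subunit in which inherited mutations are known to cause Leigh syndrome, read 1353.6, 1366.4 and 1333.8 in wtCopFry samples, against 1862.3, 1841.1 and 1748.2 in parental samples. All wtCopFry samples were lower, by a log2 change of -0.42 (SE 0.07, limma adjusted p = 0.000872). NDUFA12, which in the assembled complex takes the place held by the assembly factor NDUFAF2, read 2670.7, 2605.8 and 2669.9 in wtCopFry samples, against 3317.9, 3383.4 and 3287.9 in parental samples. The spread within each group was small beside the difference, a log2 change of -0.33 (SE 0.07, limma adjusted p = 0.00324). NDUFS6 (0.02), NDUFA2 (-0.10) and NDUFA5 (-0.21) did not pass.

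NDUFV3, an accessory subunit beside NDUFV1 and NDUFV2 that is known in a short and a long isoform, gave different answers by probe set. The brighter probe set read 710.8, 760.5 and 744.8 in wtCopFry samples, against 1235.1, 1119.0 and 1247.4 in parental samples. It fell by 0.69 on the log2 scale (SE 0.08, limma adjusted p = 7.27e-05 in the gene fit). The dimmer probe set read 158.9, 168.4 and 137.1 in wtCopFry samples, against 136.9, 107.2 and 121.3 in parental samples. It rose by 0.31 (limma adjusted p = 0.038 in the fit over all 32771 tested probe sets), with the lowest wtCopFry sample just above the highest parental one. Which transcripts each probe set reads was not determined, so the direction of NDUFV3 depends on the probe set. With the mean of both probe sets the log2 change was -0.19 and did not pass (adjusted p = 0.0724).

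The proximal membrane arm, which joins the matrix arm, had 2 rises, 1 fall and 4 genes that did not pass among 7, with a median log2 change of 0.13. NDUFA3, a small membrane-spanning subunit, had the largest fall of all members. It read 253.2, 277.0 and 229.9 in wtCopFry samples, against 398.0, 435.2 and 422.3 in parental samples, with means of 253 ± 23.6 and 419 ± 18.9 (SD, n = 3 each). The groups were far apart and the log2 change was -0.69 (SE 0.09, limma adjusted p = 0.000139). NDUFA1 rose by 0.29, and this call was lost without wtCopFry replicate 1 (adjusted p = 0.0674). NDUFA13, also known as GRIM-19, had a log2 change of 0.13, NDUFA8 of -0.01 and NDUFA11 of -0.06, and none passed. NDUFC1 had 0.20 by its bright probe set, which did not pass, while its dim probe set rose by 0.996 (49.5, 51.6 and 65.8 in wtCopFry samples, against 25.6, 27.4 and 9.3 in parental samples). Without parental replicate 1 the bright NDUFC1 probe set passed as well (log2 change 0.26, adjusted p = 0.0387).

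NDUFA10, a subunit related to nucleoside kinases, was the other gene whose probe sets were called in opposite directions. Its bright probe set read 494.4, 545.8 and 524.7 in wtCopFry samples, against 408.5, 401.4 and 359.7 in parental samples. It rose by 0.41 (SE 0.09, limma adjusted p = 0.00243), with no overlap. The 4 other tested NDUFA10 probe sets were dim, with no signal above 21 on any array. Of these, 1 rose (19.8, 14.5 and 14.9 in wtCopFry samples, against 6.0, 5.2 and 4.3 in parental samples) and 1 fell by 0.56 (9.9, 10.1 and 5.6 in wtCopFry samples, against 20.6, 20.9 and 19.0 in parental samples). Another fell by 0.22, and the last did not pass. The mean over all 5 probe sets gave NDUFA10 a log2 change of 0.05 (adjusted p = 0.477), so its call rests on the bright probe set.

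**Figure D3:**
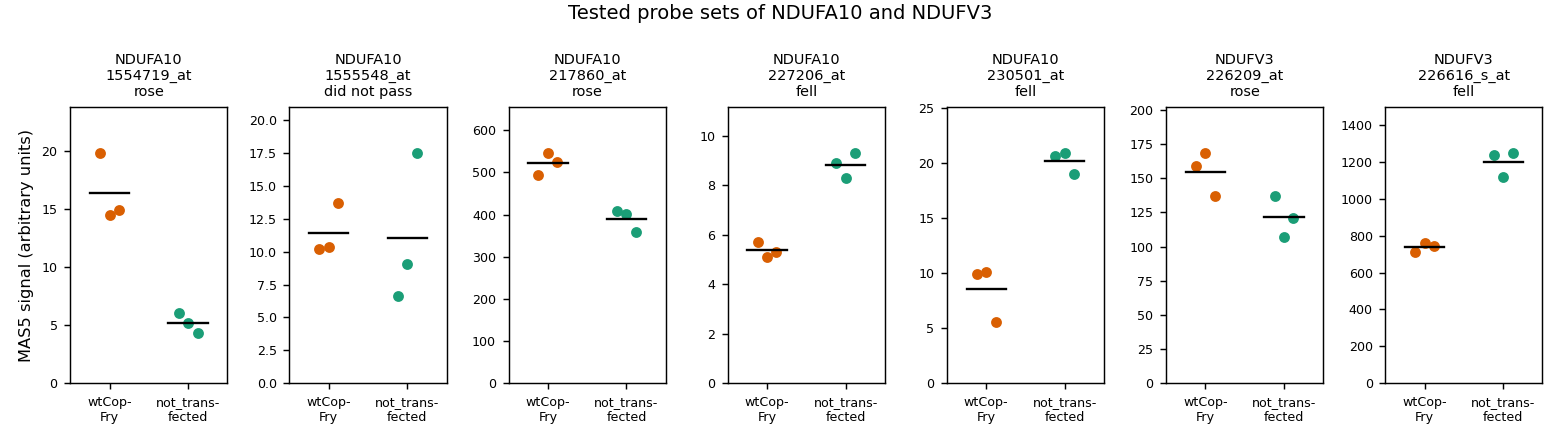
MAS5 signal (y axis, arbitrary units, from 0, a scale of its own in each panel) of the 7 tested probe sets of NDUFA10 and NDUFV3 on the 3 wtCopFry arrays (orange) and 3 not_transfected arrays (green), with group means as lines. Probe sets of both genes go both ways, and the discordant NDUFA10 probe sets lie near 20 or below, against about 500 for the bright one.

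Of the 11 genes of the distal membrane arm, the end farthest from the matrix arm, 3 rose, 2 fell and 6 did not pass, with a median log2 change of 0.01. NDUFB9, another LYR-motif subunit that holds an acyl carrier protein, had the largest change of all members. It read 3532.1, 3467.9 and 4279.6 in wtCopFry samples, against 1418.9, 1384.0 and 1560.7 in parental samples. The lowest wtCopFry sample was far above the highest parental one. The means were 3760 ± 451 and 1455 ± 93.6 (SD, n = 3 each), a ratio of 2.58 and a log2 change of 1.36 (SE 0.10, limma adjusted p = 4.09e-06). NDUFB9 has 1 probe set, so no second reading was available. The suffix of that probe set marks possible cross-reading, so NDUFB9 was not tested when such probe sets were left out.

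NDUFB7, a subunit on the intermembrane-space side, read 1397.0, 1344.4 and 1375.6 in wtCopFry samples, against 1039.1, 1013.8 and 829.1 in parental samples. All wtCopFry samples were higher, by a log2 change of 0.51 (SE 0.10, limma adjusted p = 0.00158), and its dimmer probe set rose by 0.62. NDUFB5 rose by 0.36. NDUFB1, a small membrane-spanning subunit, read 1824.7, 1721.6 and 1925.9 in wtCopFry samples, against 2074.2, 2434.4 and 2285.1 in parental samples. The groups did not overlap, and the log2 change was -0.31 (SE 0.09, limma adjusted p = 0.0142). That call was lost without wtCopFry replicate 2 (adjusted p = 0.0534) or parental replicate 2 (adjusted p = 0.0525). NDUFB11, which is encoded on the X chromosome, fell by 0.20, the smallest called change, and lost its call when any of the 6 arrays was left out (adjusted p 0.0575 to 0.116). In the fit over probe sets it did not pass (limma adjusted p = 0.0588). The changes of NDUFB3 (0.08), NDUFB4 (0.08), NDUFB6 (0.01), NDUFB2 (-0.02), NDUFB8 (-0.09) and NDUFB10 (-0.26) did not pass. NDUFB10 passed without parental replicate 3, with a log2 change of -0.36 (adjusted p = 0.00918).

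Of the 62 probe sets, 56 were bright enough to test, and the other 6 never read above 7.4. In the fit over probe sets, 18 rose, 10 fell and 28 did not pass, against a background of 30.3% of all tested probe sets that rose and 32.3% that fell. The probe sets behind the gene calls of NDUFS7, NDUFV2 and NDUFB11 did not pass in this fit. Dim second probe sets of NDUFB8 and NDUFB2 fell although the bright ones did not pass. For NDUFB8 the dim probe set read 24.7, 27.5 and 22.3 in wtCopFry samples, against 60.9, 45.5 and 58.3 in parental samples. For NDUFB2 it read 29.6, 33.5 and 27.4 in wtCopFry samples, against 62.1, 68.2 and 56.8 in parental samples. The dimmer probe set of NDUFB10 also fell, by 0.38. Of the 15 genes with several tested probe sets, NDUFA10 and NDUFV3 were the 2 with calls in both directions.

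Complex I genes read only through probe sets that name several genes stayed outside the 33. Both probe sets of NDUFC2, which also name the read-through gene NDUFC2-KCTD14, fell by 0.40 and 0.52 on the log2 scale. The probe set shared by RPL10 and NDUFS5 had a change of 0.01 and did not pass. A probe set shared by NDUFS3 and its neighbour PTPMT1, a mitochondrial phosphatase, read 752.9, 796.8 and 789.6 in wtCopFry samples, against 1445.7, 1385.4 and 1364.0 in parental samples. It fell by 0.83 although the probe set of NDUFS3 alone changed by 0.01, so the shared signal did not move as NDUFS3 did. PTPMT1, read by a probe set that names it alone, fell by 0.39 (limma adjusted p = 0.00191 in the gene fit). NDUFA4, now counted with complex IV, and its paralog NDUFA4L2 were not analysed here.

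The subunits encoded by mitochondrial DNA were read for 3 of 7 genes. ND6 rose, with 2671.8, 2552.9 and 3260.2 in wtCopFry samples, against 2363.2, 2255.7 and 2214.5 in parental samples (log2 change 0.30, limma adjusted p = 0.0287). ND2 and ND4 overlapped between the groups and did not pass, with changes of -0.04 and 0.11.

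The assembly factors, which build complex I and then leave it, mostly rose. Of 19 tested, 12 rose, 2 fell and 5 did not pass, with a median log2 change of 0.35, and 4 changed by at least 1. Over all tested genes, 34.8% rose, 34% fell and 23.2% changed by at least 1. DMAC1, a factor of distal membrane arm assembly, read 1334.5, 1297.1 and 1300.2 in wtCopFry samples, against 249.5, 232.3 and 235.2 in parental samples, a log2 change of 2.38. TIMMDC1, a membrane-arm assembly factor, read 2680.8, 2504.2 and 2864.2 in wtCopFry samples, against 816.9, 891.6 and 757.9 in parental samples, a change of 1.69. Both genes changed by more than any of the 33 subunits. DMAC2 fell by 0.55 and TMEM126B, a further membrane-arm factor, fell by 0.28. No test compared the factors with the subunits.

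The other respiratory chain complexes were mixed as well, beside the 34.8% of all tested genes that rose and the 34% that fell. In complex II 1 of 3 tested genes fell (SDHA, its flavin subunit, by 0.53) and none rose, and the other 2 did not pass. In complex III 4 of 7 rose, led by UQCRC2 (0.64) and UQCRC1 (0.25), 1 fell (UQCR10, by 0.21) and 2 did not pass. In complex IV 4 of 12 rose, led by COX5B (0.77) and COX4I1 (0.58), 1 fell and 7 did not pass. That fall was COX7B2, by 1.48, whose signals were 2.9, 4.2 and 5.4 in wtCopFry samples and 40.2, 63.4 and 23.8 in parental samples. In ATP synthase 4 of 15 rose, led by ATP5F1D (0.70) and ATP5PF (0.53), 4 fell, led by ATP5PB (by 0.36) and ATP5MC1 (by 0.31), and 7 did not pass. Median log2 changes were 0.10 in complex II, 0.22 in complex III, 0.02 in complex IV and -0.07 in ATP synthase, against 0.01 over all tested genes.

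**Figure D4:**
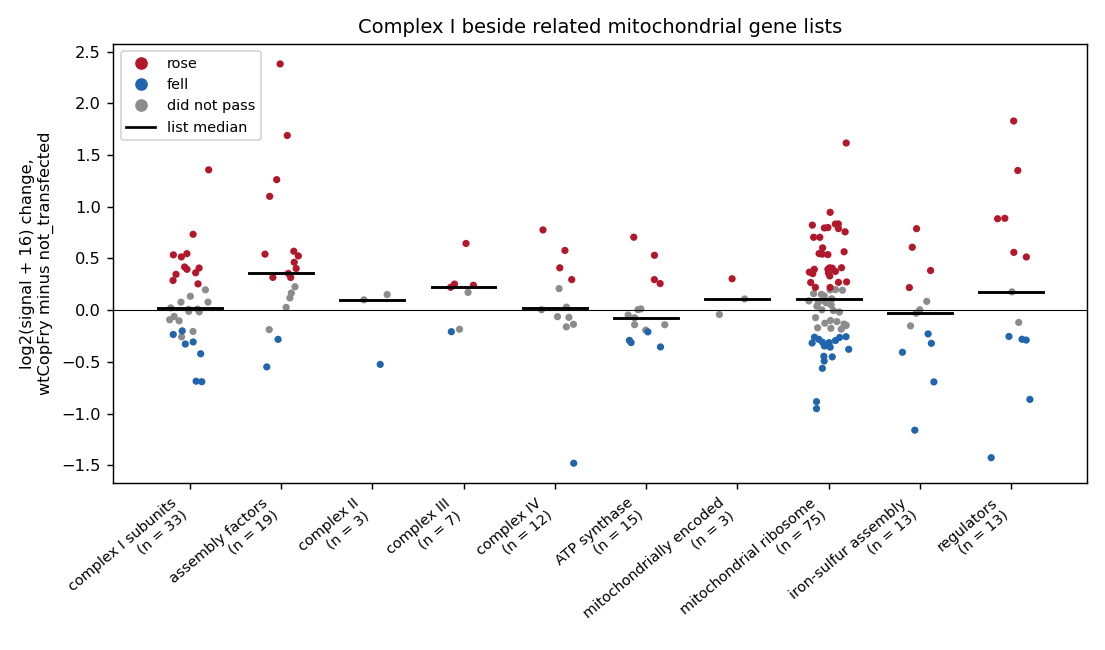
Change of each tested gene on log2(signal + 16), wtCopFry minus not_transfected (y axis), for the complex I subunits and 9 related mitochondrial lists, with the list median as a line. Medians lie between -0.07 (ATP synthase) and 0.35 (assembly factors), and every list with more than 3 tested genes holds both rises and falls.

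Genes that supply complex I were also split, as were all tested genes, of which 34.8% rose and 34% fell. Of 13 tested iron-sulfur cluster assembly genes, 4 rose and 5 fell, with a median of -0.03. NFS1, the cysteine desulfurase, rose by 0.79 and ISCA1 by 0.61, while its partner ISCA2 fell by 1.16 and LYRM4, which stabilises NFS1, fell by 0.69. Of 75 mitochondrial ribosomal protein genes, 31 rose, 17 fell and 27 did not pass, with a median of 0.11. MRPS21 (1.62) and MRPS30 (0.95) rose most, and MRPL14 (by 0.95) and MRPS14 (by 0.89) fell most.

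Of 13 tested regulators of respiratory genes, 6 rose, 5 fell and 2 did not pass, with a median of 0.18. The shares over all tested genes were again 34.8% that rose and 34% that fell. TFB1M and TFB2M, a ribosomal RNA methyltransferase and a mitochondrial transcription factor, rose by 1.83 and 1.35. GABPB2, a partner of the ETS factor GABPA, fell by 1.43. GABPB1 fell by 0.86 on its brightest probe set, but its second probe set rose by 1.15, so its direction depends on the probe set. YY1, whose motif is shown above, read 1164.0, 1186.7 and 1413.0 in wtCopFry samples, against 1387.9, 1530.8 and 1663.8 in parental samples on its brightest probe set. These groups overlapped, and the log2 change was -0.28 (limma adjusted p = 0.0411 in the gene fit and 0.0514 in the probe set fit). The 5 other YY1 probe sets fell, with log2 changes of -1.04 to -0.39. Of the 10 complex I genes with the YY1 motif, 5 rose, 2 fell and 3 did not pass, so they did not share a direction. NRF1 fell by 0.29 on its brightest probe set and by 0.45 on another, but a dim probe set rose by 0.40, so its direction also depends on the probe set.

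The place of each gene on its chromosome was also set beside its change. For each member the 10 nearest tested genes in RefSeq order, 5 on each side, were read from the same fit. The neighbours' median had the sign of the complex I gene in 16 of the 19 called genes (84.2%), against 65.1% of 9371 called genes over the genome. With NDUFV3 read by its dimmer probe set the count was 17. The shares were not tested against each other, and several of these medians were near 0. NDUFB9, on chromosome 8, had 9 neighbours that rose and 1 that fell, with a median log2 change of 1.10 beside its own 1.36. All 10 neighbours of NDUFA6, on chromosome 22, had a positive change, 8 of them rises, with a median of 0.67. NDUFA12, on chromosome 12, had 8 neighbours that fell and 2 that rose, with a median of -0.76 beside its own -0.33. All 10 neighbours of NDUFV2, on chromosome 18, passed, 7 as falls and 3 as rises, with a median of -0.34. In contrast, NDUFV1 on chromosome 11 rose while its neighbours had a median of -0.23. The medians around NDUFV3 (0.08), NDUFS1 (0.08), NDUFA7 (0.05), NDUFS7 (0.03), NDUFB7 (0.01) and NDUFS4 (0.01) were near 0, with neighbours split evenly or nearly so.

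**Figure D5:**
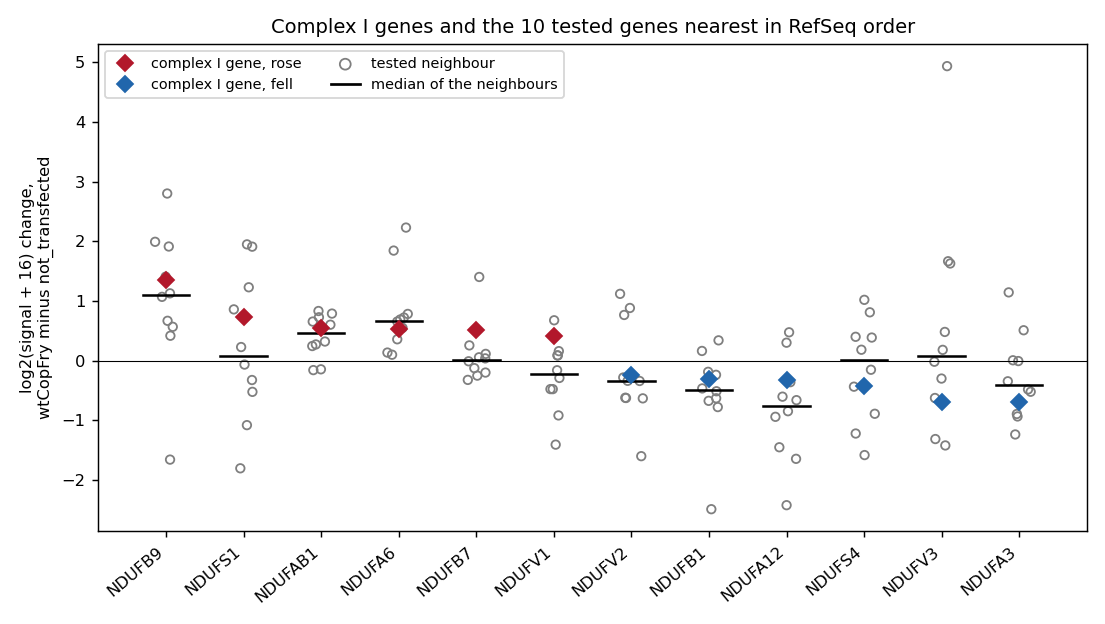
Change on log2(signal + 16), wtCopFry minus not_transfected (y axis), of 12 complex I genes (diamonds) and of the 10 tested genes nearest to each in RefSeq order (open circles), with the neighbours' median as a line. The neighbours of NDUFB9 and NDUFA6 lie mostly above 0 and those of NDUFA12 mostly below, while those of NDUFS1, NDUFV3 and NDUFS4 spread on both sides.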

How the data were processed

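Total RNA was taken from cultures at 70% confluence and 40 ng of each sample was amplified and labelled with a NuGEN Ovation kit, per the labels' protocols. The authors deposited linear intensity values, and the submitters' processing notes name MAS5, with no version given in the sources used here. MAS5 subtracts mismatch signal, so values near 0 are unstable, and the number of arrays limits the precision.

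Gene names came from GEO's platform annotation, checked against RefSeq (GRCh38.p14). Among 54613 probe sets, controls left out, 41091 named 1 gene, 1801 several and 11721 none here. Log2(signal + 16) was used for tests, and it understates changes of dim genes. Probe sets with a mean at or above the 40th percentile (5.87) were tested without covariates in limma 3.58.1 (lmFit, eBayes; R 4.3.3). P-values were adjusted by Benjamini-Hochberg over all tested probe sets, or over all tested genes in a second fit of 1 probe set a gene, with a threshold of 0.05. The fit was tested on simulated data in which few probe sets changed, each by at least 1 on the log2 scale. Smaller changes, as in most members, were not simulated, nor was a comparison in which most genes change. Figures used matplotlib 3.10.9.

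The members, lists, markers, motifs and tests were chosen with earlier results of these data known. Values on every array are given for the 6 largest rises and 6 largest falls without overlap, core subunits, genes with opposite calls and NDUFAB1. From each list up to 2 rises and 2 falls with the largest change are named. NDUFC1, NDUFB8 and NDUFB2 probe sets, the shared NDUFS3 probe set, YY1 and ND2 and ND4 were given values after they were seen. Alternatives changed the pseudocount, filter, scaling, summary of probe sets, prior and replicate block, and left out each array.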

Additional observations from a re-analysis of the deposited data

How the results depend on the processing

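Calls were compared over all pairs of a complex I gene and an alternative setting. The call was unchanged in 473 pairs, lost in 34, gained in 14 and turned in 1. Genes that did not pass could change sign and still count as unchanged, as NDUFA8 did without wtCopFry replicate 1 (0.03). Of the 19 called genes 11 passed under each setting that tested them. Calls were lost somewhere for NDUFA1, NDUFA7, NDUFA10, NDUFB1, NDUFB11, NDUFS7, NDUFV2 and NDUFV3. Of the 14 uncalled genes 9 passed under none that tested them, and NDUFA5, NDUFB2, NDUFB8, NDUFB10 and NDUFC1 passed somewhere. Without probe sets whose suffix marks possible cross-reading (x_at and s_at), 27 genes on 38 probe sets were tested, 2 genes fell in place of 7 and 5 probe sets fell in place of 10. There NDUFV3 turned to 0.31 (adjusted p = 0.0342), because its dimmer probe set was the 1 left. With the mean of all probe sets 5 distal membrane arm genes fell in place of 2, since dim probe sets of several genes fell. Leaving out each array in turn gave 9 to 12 genes that rose, 4 to 7 that fell, 15 to 18 probe sets that rose and 8 to 11 that fell. With the replicate block 12 genes rose and 5 fell (NDUFB11 and NDUFV2 lost their calls), and 18 probe sets rose and 10 fell. Same-numbered samples deviated together weakly (correlations 0.0704, 0.0743 and 0.187, with 2 of 3 numbers best matched to their own), so the numbers were not taken to pair the samples. Quantile scaling and median centring moved the median of all genes by 0.001 and -0.017. Changes of probe sets with signals near 20 or below rest on little signal over background.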
